A study of Drosophila melanogaster with 3 samples.

Results

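The regions described here are promoter regions that belong to long noncoding RNA genes only. They were taken from the authors' pooled list of 30000 candidate regions of Hsf-GFP chromatin immunoprecipitation followed by sequencing (ChIP-seq) in Drosophila melanogaster embryos, in dm6 coordinates. A region was a member when its summit, the position of highest signal, lay no more than 500 bp from a transcription start site (TSS) of a gene whose symbol starts with lncRNA: or asRNA:, and more than 500 bp from every protein-coding TSS. This rule chose 593 of the 30000 regions (1.98%), nearest to 500 genes, of which 508 regions lay nearest to lncRNA: genes and 85 nearest to asRNA: genes, which are annotated as antisense RNAs. The rule used position alone and no measured value. The regions it left were 8685 at promoters of protein-coding genes only, 322 at promoters of both kinds, 221 at promoters of other noncoding genes only and 20179 away from every annotated TSS.

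All samples were of 1 group, with no untreated or wild-type group beside it. The embryos were whole, aged 0 to 24 h and of both sexes pooled, and carried Hsf fused to GFP at its C terminus as a stable transgene. Chromatin was sonicated to 200 to 800 bp and precipitated with an antibody against GFP, and the 3 samples are biological replicates 1, 2 and 3. The labels name no heat treatment, do not say whether the embryos also carried the untagged Hsf gene, and name a control experiment that was not analysed here. Whole embryos over this span mix many cell types and stages, so that more cells bound and more binding per cell cannot be told apart.

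Hsf is the heat shock factor of Drosophila, a transcription factor that binds inverted repeats of the unit GAA as a trimer and switches on chaperone genes when cells are heated. Long noncoding RNAs are transcripts of the length of messenger RNAs that are not known to be translated. Some have established roles in flies, among them roX1 and roX2, which are part of the dosage compensation complex of the male X chromosome, flam (flamenco), a source of small RNAs that silence transposons, and Hsromega, a nuclear RNA that is strongly induced by heat. Most others carry only a CR number. The lists hold no RNA measurement, so whether these genes were transcribed in the embryos was not tested.

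The DNA at the summits is shown first for 4 members, the 2 with the highest signal and the 2 strongest at genes with a name of their own. Each line gives the summit and 100 bases on each side of it, from RefSeq's genome of release 6 (dm6), in the direction of the noncoding gene. Capitals mark a match to the heat shock element, searched on both strands as 3 units GAA, TTC and GAA with any 2 bases between units and at most 1 mismatch among the 9 fixed bases. The window of lncRNA:CR44619 (chrX:12751307-12751507, + strand) holds 2 matches, that of lncRNA:Hsromega (chr3R:21296287-21296487, + strand) holds 1, and those of lncRNA:CR31044 (chr3R:29214350-29214550, + strand) and lncRNA:flam (chrX:21631584-21631784, + strand) hold 0.
lncRNA:CR44619: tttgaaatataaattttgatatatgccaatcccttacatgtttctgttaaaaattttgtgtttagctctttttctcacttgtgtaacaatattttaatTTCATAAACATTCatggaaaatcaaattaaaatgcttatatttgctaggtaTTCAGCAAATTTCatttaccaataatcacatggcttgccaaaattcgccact
lncRNA:CR31044: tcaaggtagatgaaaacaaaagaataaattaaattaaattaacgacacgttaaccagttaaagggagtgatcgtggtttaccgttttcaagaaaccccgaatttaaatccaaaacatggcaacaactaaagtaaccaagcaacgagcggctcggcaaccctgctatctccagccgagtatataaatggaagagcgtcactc
lncRNA:Hsromega: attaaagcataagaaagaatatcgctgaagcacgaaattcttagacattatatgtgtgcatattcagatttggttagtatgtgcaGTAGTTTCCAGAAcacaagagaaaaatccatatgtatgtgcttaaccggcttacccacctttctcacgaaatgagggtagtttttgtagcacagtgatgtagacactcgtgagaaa
lncRNA:flam: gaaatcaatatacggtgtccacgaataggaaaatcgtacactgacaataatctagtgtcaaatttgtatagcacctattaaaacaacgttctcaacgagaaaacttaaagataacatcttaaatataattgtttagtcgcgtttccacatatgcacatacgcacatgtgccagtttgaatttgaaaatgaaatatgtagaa

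The authors' optimal list holds 5756 peaks that passed the irreproducible discovery rate filter (IDR), which keeps regions that replicates rank in a like order, and these are the 5756 regions of highest signal in the pooled list. Of the 593 members 116 were optimal peaks, which is 19.6% (95% Wilson interval 16.6 to 22.9%). Over all pooled regions the share was 19.2%, so the members' share was near the background. It was 31.9% at coding-only promoters (2774 of 8685), 33.5% at promoters of both kinds (108 of 322) and 13.6% away from every TSS (2735 of 20179). Intervals count regions only and cover neither embryos nor libraries.

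The same was seen in each replicate when its N = 5756 strongest regions were called strong. The members, chosen anew by the same rule in each list, numbered 611, 555 and 592 in replicates 1, 2 and 3, and 20, 20 and 19.4% of them were strong. Of coding-only promoter regions 29.7, 39.8 and 35.6% were strong in replicates 1, 2 and 3, and of regions away from every TSS 13.9, 14.0 and 12.6%. Over all regions of a list the strong share was 19.2% in replicates 1 and 3 and 20.4% in replicate 2. The members thus lay near the background, below coding promoters and above regions away from a TSS in 3 of 3 replicates, with no overlap between these classes. The members averaged 19.8 ± 0.323% (SD, n = 3) against 35.0 ± 5.07% at coding-only promoters, a difference of -15.2 ± 5.10 percentage points (exact sign-flip permutation test over replicates, two-sided, p = 0.25). Against 13.5 ± 0.743% away from every TSS the difference was 6.31 ± 0.420 percentage points (p = 0.25 in the same exact test). With 3 replicates 0.25 is the smallest p this test can give, so no difference here can pass 0.05. When each gene was allowed only its strongest region of a class, the difference from regions away from a TSS turned to -2.17 percentage points. That from coding-only promoters was -20.6. Regions away from a TSS were thinned by their nearest gene of any kind, at any distance. Their strong share rose from 13.5 to 23.8%, and that of members from 19.8 to 21.6%, so the thinning was unequal between classes.

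**Figure D1:**
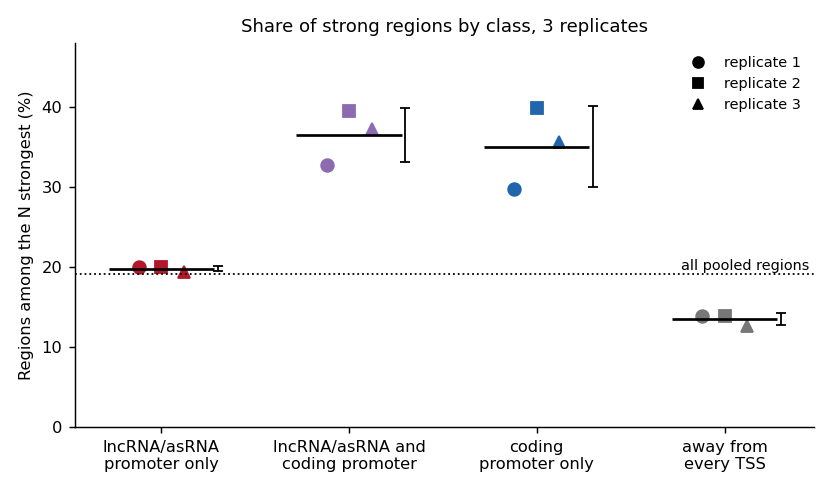
Share of regions (%) among the N = 5756 strongest of each replicate list, for regions at promoters of lncRNA: and asRNA: genes only, of both kinds, of coding genes only, and away from every TSS; points are replicates, black bars their mean, whiskers the SD (n = 3), and the dotted line the 19.2% of all pooled regions. The members sit between 19.4 and 20%, the coding-only promoters between 29.7 and 39.8%, and the regions away from a TSS between 12.6 and 14.0%.

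The position of summits around the start site differed between the classes. The comparison of median distances was planned, and the other position comparisons were chosen after the values were seen. Of the strong members 18.7 ± 1.77% had their summit within 100 bp of the TSS, against 47.7 ± 3.00% of strong coding-only promoter regions (SD, n = 3 each). Within 200 bp these shares were 38.5 ± 1.00% of strong members and 75.9 ± 1.65% of strong coding-only regions. The median distance from summit to TSS was 220, 225 and 258 bp for strong members of replicates 1, 2 and 3, against 105, 112 and 99 bp for strong coding-only regions. The groups did not overlap, and the difference averaged 129 ± 26.0 bp (exact sign-flip permutation test, p = 0.25, larger in members in 3 of 3 replicates). Its size followed the window of the rule, at 21.7 bp with a 200 bp window and 327 bp with a 1000 bp window. Strong summits at coding starts crowded just upstream of the TSS. Strong summits of members were less crowded there but not evenly spread, with 58.4 ± 3.23% of them upstream, against 82.5 ± 3.20% for coding-only promoters. The 100 bp just upstream of the TSS held 9.02, 14.4 and 13.9% of strong members in replicates 1, 2 and 3. The first 100 bp from the TSS on held 9.02, 6.31 and 3.48%, which was lower in replicates 2 and 3 only. Of weaker regions 47.7 ± 3.11% of members and 54.8 ± 4.38% of coding-only regions lay upstream. The lower share close to the TSS was there in weaker members too: 23.1 ± 1.57% of them lay within 100 bp of it, against 38.7 ± 2.81% of weaker coding-only regions. In the pooled list the median distance to the noncoding TSS was 228 bp for optimal members and 224 bp for the others.

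**Figure D2:**
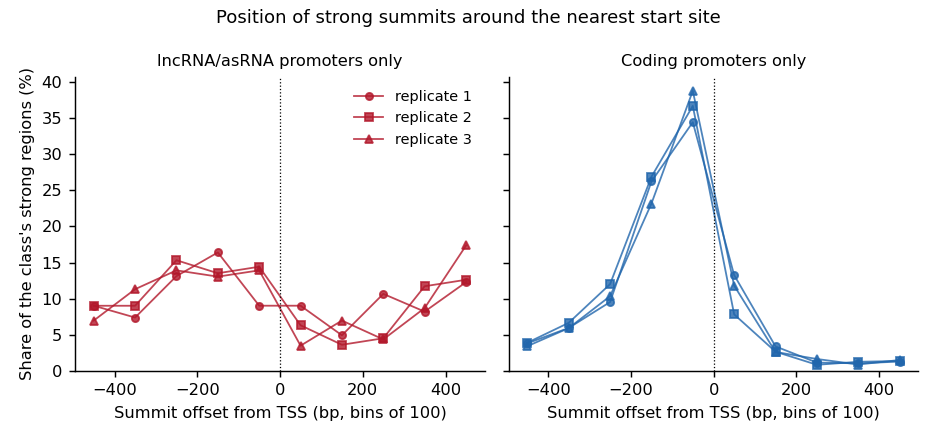
Share (%) of each class's strong regions by the offset of the summit from the nearest start site of the class, in bins of 100 bp, negative upstream; left, regions at promoters of lncRNA: and asRNA: genes only, right, coding-only promoters; lines are replicates. The coding-only profile peaks just upstream of the start, and the member profile has no such peak: 18.7% of strong members lie within 100 bp of the start, against 47.7% of strong coding-only regions.

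The gap in strength between members and coding-only promoter regions varied with the position of the summit. Of members with the summit 0 to 200 bp from the TSS, 17.6 ± 0.425% were strong, against 40.6 ± 6.38% of coding-only regions at that distance, a difference of -23.0 ± 6.63 percentage points. Farther than 200 bp from the TSS the strong share was 21.5 ± 0.376% of members and 24.5 ± 3.69% of coding-only regions, a difference of -3.01 ± 3.48 that was negative in 2 of 3 replicates. The difference near the start minus that farther away was -20.02 ± 3.47 percentage points, negative in 3 of 3 replicates (exact sign-flip permutation test of the difference of differences, p = 0.25). Upstream of the TSS 23.3 ± 2.12% of members and 44.8 ± 6.17% of coding-only regions were strong, and at or downstream of it 16.5 ± 1.98% of members and 17.1 ± 1.07% of coding-only regions. The downstream difference of -0.605 ± 2.98 was smaller than the spread between replicates (exact sign-flip permutation test, p = 0.75), and the upstream and downstream differences differed by -20.9 ± 1.81. In the pooled list, the share of optimal members by steps of 100 bp from the TSS was 16.3, 17.7, 22.1, 19.0 and 23.5%, and that of coding-only regions 34.6, 39.4, 26.1, 21.7 and 19.2%.

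By the annotation at the summit, 197 members were intergenic, 189 lay in an exon of a noncoding transcript, 146 in an intron of a coding gene, 24 in coding sequence, 19 in an intron of a noncoding gene, 13 in a 3' UTR and 5 in a 5' UTR. Optimal peaks were 44 of the intergenic members (22.3%), 31 of those in noncoding exons (16.4%), 36 of those in introns of coding genes (24.7%) and 0 of those in coding sequence. In coding sequence the strong share was low in the other classes too, at 2.49 ± 0.1002% of coding-only promoter regions and 0.494 ± 0.0906% of regions away from a TSS. With location held fixed, 23.9 ± 1.35% of intergenic members were strong, against 48.1 ± 5.95% of intergenic coding-only promoter regions and 14.2 ± 1.09% of intergenic regions away from every TSS. The difference from intergenic coding-only regions was -24.3 ± 4.72 percentage points (exact sign-flip permutation test, p = 0.25, lower in 3 of 3 replicates). In introns of coding genes 24.5 ± 2.75% of members were strong, against 34.6 ± 6.71% of coding-only promoter regions and 17.2 ± 1.37% of regions away from a TSS.

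The optimal share of the pooled list was also counted by kind of member, beside 19.6% of all members and 19.2% of all pooled regions. It was 20.5% for the 508 at lncRNA: genes (104 optimal) and 14.1% for the 85 at asRNA: genes (12 optimal). It was 20.6% at genes of 1 exon (73 of 354) and 18.0% at genes of 2 or more (43 of 239). By arm it was 24.6% on X (17 of 69), 22.0% on 2L (33 of 150), 21.1% on 2R (24 of 114), 17.1% on 3R (22 of 129), 16.3% on 3L (20 of 123) and 0 of 8 on the small arm 4. Coding-only regions had another order, with 28.6% on X, 32.9% on 2L, 30.7% on 2R, 33.8% on 3R, 33.6% on 3L and 20.3% on 4 (14 of 69). By gene length the share of members was 23.9% up to 500 bp (38 of 159), 17.4% over 500 and up to 1000 bp (34 of 195), 15.8% over 1000 and up to 5000 bp (30 of 190) and 28.6% over 5000 bp (14 of 49). A noncoding gene that overlaps a coding gene on the other strand had 35 optimal members of 181 (19.3%), and one that overlaps none had 73 of 382 (19.1%). These are counts of single pooled regions and were not tested.

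The median distance from summit to the nearest coding TSS was 2846 bp for optimal members and 3012 bp for the others. The optimal share was 19.0% at 501 to 1000 bp from a coding TSS and 19.1% at over 10000 bp. In the replicates 22.5 ± 2.95% of members with a coding TSS 501 to 1000 bp away were strong, against 16.1 ± 2.00% of regions away from every TSS at that distance. At over 1000 and up to 5000 bp these shares were 21.6 ± 2.83% for members and 13.5 ± 1.05% for regions away from a TSS, and at over 5000 bp 16.4 ± 2.00% for members and 12.7 ± 1.44% for regions away from a TSS. The farthest members had the lowest strong share in each replicate, at 17.1, 14.2 and 18.0% in replicates 1, 2 and 3, a pattern noticed after the values were seen and not tested. In the pooled list the fall was smaller, with 20.7% optimal at over 1000 and up to 5000 bp and 18.2% at over 5000 bp. The nearest coding gene had an optimal peak at its own promoter for 45 of the 116 optimal members (38.8%) and for 118 of the 477 others (24.7%). For regions away from a TSS it was 36.6% of the optimal ones and 30.7% of the rest.

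Among the 1000 strongest regions of each list members made up a larger share than in the list as a whole. In the pooled list they were 32 of the 1000 strongest (3.2%), against 1.98% of all 30000. The excess depended on the cut. Of the 100 strongest pooled regions 2 were members, which is near the share in the list. The following sets of 1000 pooled regions, in order of rank, held 1.6, 1.4 and 2.7% members. In replicates 1, 2 and 3 members made up 3.4, 2.9 and 2.6% of the 1000 strongest, against 2.04, 1.97 and 1.97% of each whole list. Of the next 1000 regions they made up 2.1, 1.8 and 2% in replicates 1, 2 and 3. Coding-only promoter regions made up 59.8% of the 1000 strongest pooled regions and 28.9% of the pooled list. This comparison was made after the values were seen and was not tested. Signal here is the authors' peak signal, on its own scale in each list. Its median was 40.4 over all 593 members (24.6 to 2149), and 175 over the 116 optimal ones, against 180 over optimal coding-only regions and 167 over all optimal peaks. The medians of optimal regions were thus close to each other.

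The strongest member lay at lncRNA:CR44619 (FBgn0265830, chrX:12750858-12751645), 460 bp upstream of its TSS and in an exon of another noncoding gene, lncRNA:Vinr. Its pooled signal was 2149, rank 10 of 30000. In replicates 1, 2 and 3 its signal was 703, 824 and 638, at ranks 16, 10 and 7, so that all 3 lists held it among their foremost regions. The nearest coding TSS, of CG4004, was 5090 bp away. The second lay at lncRNA:CR31044 (FBgn0051044, chr3R:29214242-29214626), 112 bp upstream of the TSS between genes, with a pooled signal of 1313 at rank 41. Its signal was 558, 405 and 357 in replicates 1, 2 and 3, at ranks 30, 69 and 40. The nearest coding gene was eEF1gamma, which encodes a subunit of a translation elongation factor, at 5722 bp, and its promoter held an optimal peak of its own.

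The drop after these was steep. The third, at lncRNA:CR43626 (chr3L:3249977-3250459), had a pooled signal of 721 at rank 188, with 289, 274 and 160 in replicates 1, 2 and 3. The region at lncRNA:CR44676 (chr3L:19560690-19560999) had 631 and that at lncRNA:CR44867 (chr2L:15911098-15911440) 629, the second of them in an intron of beat-Ib, a member of a family of axon guidance genes. At lncRNA:CR31840 (chr2L:14023924-14024237) the summit lay 23 bp downstream of the TSS and the signal was 607. This member had the widest spread of ranks among the strongest, 128, 981 and 206 in replicates 1, 2 and 3.

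Other strong members lay at lncRNA:CR44810 (605), lncRNA:CR45668 (601), lncRNA:CR46102 (588), lncRNA:CR44380 (561), lncRNA:CR44339 (488), asRNA:CR45908 (455), asRNA:CR45999 (452), lncRNA:CR44917 (429) and lncRNA:CR42657 (419), each with its pooled signal. All 15 of the strongest were among the N strongest of every replicate. Several stood near coding genes of known function. The region of lncRNA:CR45668 lay 664 bp from the TSS of Act5C, which encodes a cytoplasmic actin, and that of lncRNA:CR42657 lay 646 bp from the TSS of nej, which encodes the histone acetyltransferase CBP. The region of lncRNA:CR46102 (chr3R:25738051-25738328) lay in an intron of LpR2, a lipophorin receptor gene. That of lncRNA:CR44339 had Psc, a Polycomb group gene, as its nearest coding gene at 4156 bp. The nearest coding promoters of lncRNA:CR45668, lncRNA:CR42657 and lncRNA:CR44339 held optimal peaks themselves, and that of lncRNA:CR46102 did not.

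**Figure D3:**
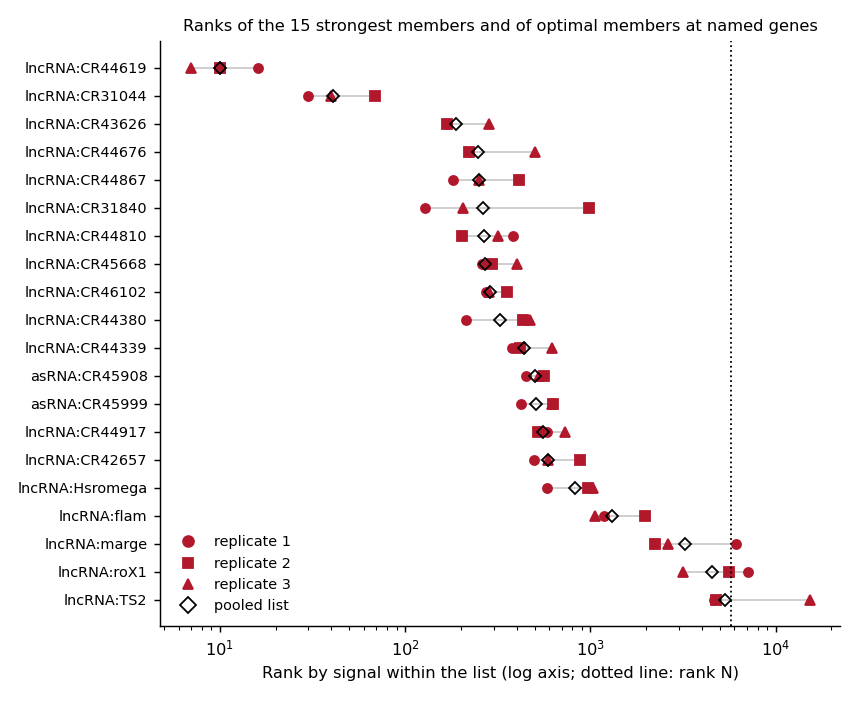
Rank by signal within each list (log axis, 1 is the strongest) for the 15 strongest members and for the 5 optimal members at genes with a name in place of a CR number; filled symbols are replicates, open diamonds the pooled list, and the dotted line rank N = 5756. The 15 strongest lie left of the line in every replicate, and marge, roX1 and TS2 have at least 1 replicate to its right.

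Of the 16 members at genes with a name of their own, 5 were optimal peaks. Over all members the optimal share was 19.6% and over all pooled regions 19.2%, and 16 members are few to set against it. The strongest named member was at lncRNA:Hsromega (FBgn0001234, chr3R:21296156-21296495), the heat-inducible nuclear RNA, with a pooled signal of 355 at rank 825. Its signal in replicates 1, 2 and 3 was 163.1, 114.9 and 86.6, at ranks 583, 969 and 1028. The summit lay 234 bp upstream of the nearest annotated TSS of the gene and within an exon of a longer transcript that starts before it. It was among the N strongest of every list, though below the 15 members above. A second, weaker member at the same gene had a signal of 36.7 and overlapped the first.

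The next, at lncRNA:flam (chrX:21631680-21631783), lay between genes 207 bp upstream of the TSS of the transposon-silencing locus. Its pooled signal was 276 at rank 1313, with 114, 73.3 and 85.3 in replicates 1, 2 and 3, at ranks 1191, 1975 and 1061. The other 3 named optimal members changed sides between replicates. The region at lncRNA:marge (chr3L:14977873-14978288) had a signal of 152 and ranked 6103, 2241 and 2618 in replicates 1, 2 and 3. That at lncRNA:roX1 (chrX:3862293-3862708), 76 bp upstream of the TSS, had 117 and ranked 7133, 5605 and 3154. That at lncRNA:TS2 (chr2L:3587312-3587727) had 104 and ranked 4676, 4764 and 15264. Each was outside the N strongest of 1 replicate.

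The partner of roX1, lncRNA:roX2 (chrX:11578882-11579297), held a member of signal 44.8 at pooled rank 13612, which was in the list of replicate 1 alone, at rank 7522. The difference between the 2 roX genes in a single pooled list has no replicate error. At lncRNA:yar, a gene between yellow and achaete, the signal was 87.1 at rank 6529, with ranks 7150, 6637 and 6435 in replicates 1, 2 and 3, outside the N strongest in each. In the bithorax complex, lncRNA:iab8 had a member of signal 47.9 (rank 12628) and lncRNA:iab4 one of 27.6 (rank 25606), neither optimal. The member at lncRNA:sphinx, a gene known for a part in male courtship, had 31.4. The genes lncRNA:bxd, lncRNA:let7C, the host of let-7, lncRNA:cherub, lncRNA:acal, lncRNA:noe and lncRNA:CRG had no candidate region within 500 bp of a TSS.

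Counted by gene, most long noncoding RNA genes had no candidate region of the pooled list at their promoter. A gene was counted when any of its annotated start sites had a summit in reach, and the number of start sites per gene was not matched between classes. Of the 2447 annotated lncRNA: and asRNA: genes 752 (30.7%) had any pooled candidate summit within 500 bp of a TSS, against 7889 of 13945 coding genes (56.6%). An optimal member lay at 113 of the noncoding genes (4.62%), and a further 97 (3.96%) had an optimal peak that also lay at a coding promoter, which makes 210 (8.58%) with any optimal peak. A weaker member and no optimal peak of either kind was found at 393 genes. Of coding genes 3608 (25.9%) had an optimal peak. Candidate regions on which the counts rest include background regions by design, so a candidate is not a bound site. Members were not all independent: 112 overlapped another member, and 84 genes had 2 or more, with at most 4 at 1 gene.

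Recovery between replicates lay between that of coding promoters and of regions away from a TSS. Of the 593 members 270 (45.5%) overlapped a region in all 3 replicate lists by at least 1 bp, against 60.8% of coding-only promoter regions and 35.7% of regions away from a TSS. All 116 optimal members were in all 3 lists. Optimal peaks were chosen by IDR from these same replicates, so that choice favours their recovery. Of the 116 optimal members, 77 (66.4%) were among the N strongest of every replicate, 29 of 2 replicates and 10 of 1. The share in every replicate was 72.2% for optimal coding-only regions and 63.7% for optimal regions away from a TSS. Across the 270 members in all lists, which share the libraries and the control, the ranks of replicates 1 and 2 had a Spearman's rho of 0.814, those of 1 and 3 one of 0.807 and those of 2 and 3 one of 0.779.

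Motifs around the summit differed between strong members and strong coding promoters for 2 factors of coding promoters. Within 100 bp of the summit, on both strands, the DREF motif TATCGATA was in 0.820, 0 and 0.870% of strong members of replicates 1, 2 and 3, against 9.06, 8.53 and 9.43% of strong coding-only regions. DREF is a factor of promoters of growth and replication genes. The M1BP motif GGTCACACT with at most 1 mismatch was in 2.46, 1.80 and 1.74% of strong members, against 12.6, 11.0 and 13.5% of strong coding-only regions. M1BP binds promoters of housekeeping genes with paused polymerase. Neither pair of groups overlapped, and the differences were -8.44 ± 0.175 percentage points for DREF and -10.4 ± 1.32 for M1BP (SD, n = 3, exact sign-flip permutation test, p = 0.25 for each). Over all regions of the lists the shares averaged 2.20% for DREF and 4.95% for M1BP. The weaker members had 0.557% and 2.35%, so strong and weak members differed by less than the spread between replicates in both motifs. Weaker coding-only regions had 5.64 ± 0.469% for DREF and 10.4 ± 0.944% for M1BP, so the contrast between classes was there in weaker regions too. In replicates 1, 2 and 3 the shares of strong members rest on 1, 0 and 1 regions for DREF and 3, 2 and 2 for M1BP. Strong regions away from every TSS had similarly low shares, 0.549 ± 0.0880% for DREF and 2.57 ± 0.181% for M1BP, so the low shares were not particular to members.

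The motif GAGAGAG of GAGA factor, which keeps promoters open in embryos, went the other way, at 6.56, 4.50 and 6.96% of strong members of replicates 1, 2 and 3, against 4.30, 3.13 and 3.86% of strong coding-only regions. The mean difference was 2.24 ± 0.862 percentage points (exact sign-flip permutation test, p = 0.25, higher in 3 of 3 replicates), and all regions averaged 3.33%. Strong regions away from every TSS averaged 2.66%, weaker members 4.22% and weaker coding-only regions 5.10%, which is above the strong coding-only ones. The motif CAGGTAG of Zelda, which opens chromatin in early embryos, was in 2.02 ± 0.519% of strong members and 0.736 ± 0.159% of strong coding-only regions, and in 1.11% of all regions. In replicates 1, 2 and 3 the Zelda share of strong members rests on 2, 2 and 3 regions. The TATA box TATAAAA was in 11.2 ± 3.09% of strong members, 16.0 ± 0.729% of strong coding-only regions and 10.6% of all regions. Strong regions away from every TSS had it in 16.0 ± 0.874%, so the higher share was not particular to coding promoters. These letters in a window are no evidence that the factor is bound.

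**Figure D4:**
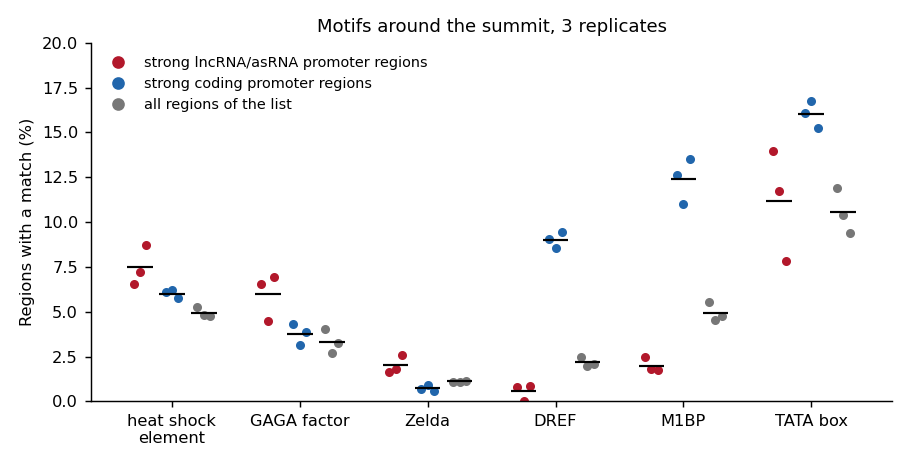
Share of regions (%) with at least 1 match within 100 bp of the summit, for 6 motifs; points are replicates and black bars their means, for strong regions at promoters of lncRNA: and asRNA: genes only, strong coding-only promoter regions, and all regions of the list. DREF averages 0.563% and M1BP 2.00% in strong members, against 9.01% and 12.4% in strong coding-only regions.

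The heat shock element was in 6.56, 7.21 and 8.70% of strong members of replicates 1, 2 and 3, against 5.52, 3.38 and 5.87% of weaker members. The difference was 2.56 ± 1.41 percentage points, positive in 3 of 3 replicates (exact sign-flip permutation test, p = 0.25), and all regions averaged 4.95%. The shares of strong members rest on 8, 8 and 10 regions in replicates 1, 2 and 3. The difference did not hold its sign in every setting. Of the alternatives 9 moved it by less than the spread between replicates, 1 moved it by more and 2 turned its sign. Within 50 bp of the summit it was 3.42, and within 250 bp it was 0.784. With both 500 bp limits of the rule set to 200 bp it was -0.511. With no mismatch allowed it was -0.206, where 0% of strong members and 0.206% of weaker ones held a match, too few to compare. Strong coding-only regions had the element in 6.01 ± 0.241% and strong regions away from a TSS in 6.05 ± 0.359%. Strong members were also poorer in G and C than weaker members over the same window, at 35.6 ± 0.724% against 43.0 ± 1.35%. This was not particular to members, as coding-only regions had 36.8 ± 0.709% when strong and 42.6 ± 0.801% when weaker. The GC difference between strong members and strong coding-only regions was -1.29 ± 0.461 percentage points, and it turned to 1.25 over 250 bp to each side. The part of base composition in the motif shares was not tested.

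In the pooled list 9 of the 116 optimal members held the element (7.76%), against 29 of the 477 others (6.08%) and 5.18% of all 30000 regions. The lines below give 8 of the 9, each as 29 bases in the direction of the noncoding gene with the 13 bases of the match nearest to the summit in capitals, from RefSeq's genome of release 6. They are printed because most optimal members lack such a match. They are matches of letters within 100 bp of the summit, and whether Hsf bound at them was not tested. Each has 1 mismatch. Those that begin GAA or GTA read the element on the gene strand, and those that begin TTC read it on the other strand. The matches lie between 4 bp (lncRNA:CR44619) and 74 bp (lncRNA:marge) from the summit, and that of lncRNA:Hsromega lies 9 bp from it.
lncRNA:CR44619: attttaatTTCATAAACATTCatggaaaa
lncRNA:CR46102: taaattctGAACTTTAAAGAAcccttttt
lncRNA:CR46535: atataaagTTCAAGCAGTTTCtaggtaaa
lncRNA:Hsromega: tatgtgcaGTAGTTTCCAGAAcacaagag
lncRNA:CR45645: cgtgctggTTCCTTAATTTTCctcagtgt
lncRNA:CR44585: caggccttGAAATTTATGGAAaaatctta
lncRNA:marge: ccaattttTTCCAGAAGTATCtttcctat
lncRNA:CR43648: aatcgaatGAAAGTTCTCAAAagtattgc

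The strongest members with the element were those of lncRNA:CR44619, at rank 10, and lncRNA:CR46102, at rank 287. Those of lncRNA:CR46535 (389), lncRNA:Hsromega (355), lncRNA:CR45645 (182), lncRNA:CR44585 (171), lncRNA:marge (152) and lncRNA:CR43648 (151) followed in pooled signal. The ninth, at lncRNA:CR45277, had a pooled signal of 130 at rank 4029, and its bases are not shown here. So 13 of the 15 strongest members had no match, lncRNA:CR31044 at rank 41 among them.

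The regions nearest to the limits of the rule are given with their pooled signal. Just inside the 500 bp limit to a noncoding TSS lay regions at asRNA:CR45257 (500 bp, signal 135) and lncRNA:CR45449 (500 bp, 31.0), and just outside it regions at asRNA:CR44053 (502 bp, 34.2) and lncRNA:CR43685 (502 bp, 26.6). Just beyond 500 bp from a coding TSS, and so members, were regions at asRNA:Eig63F-2 (501 bp, 39.5) and asRNA:CR44124 (508 bp, 81.3). Just within it, and so left out, were regions at lncRNA:CR45036 (495 bp, 92.0) and lncRNA:CR43493 (499 bp, 111).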

How the data were processed

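Lists of regions in dm6 were deposited by the authors, 1 for each of the 3 replicates and 1 for the pooled replicates, with peaks and background regions as input to IDR, and a list of optimal peaks. Signal values are as the authors deposited them, and their scale differs between lists, so they were used within a list only. How the reads were aligned and the peaks called is not given in the sources used here. The lists hold no read counts, so sequencing depth is unknown. Lists in dm3 were not used.

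Regions were classed by their summit with the gene models of Ensembl release 115 (BDGP 6.54), on 6 arms, leaving out 2 regions on Y in replicate 2. Bases came from RefSeq's genome of release 6. Shares among the N = 5756 strongest were compared within replicates by exact sign-flip permutation over 3 replicates, two-sided, whose smallest p is 0.25. The intergenic comparison and that of median summit distance were planned, and the other comparisons by position, location and coding distance were made after the values were seen. Python 3.11.15, pandas 2.3.3, numpy 2.4.6 and scipy 1.17.1 were used, and the steps were tested on simulated data. The members and lists were chosen with earlier results of these data known. Named genes are those of the 15 strongest members, optimal members at genes without a CR number, a list of known long noncoding RNAs, the regions nearest to the 500 bp limits and the 2 strongest members with a heat shock element; lncRNA:msa is not a symbol of the annotation used, and snoRNA host genes carry symbols outside the rule. Alternatives changed the window, the coding exclusion, the gene set, N, the regions per gene, the motif window and mismatches, and left out each replicate.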

Additional observations from a re-analysis of the deposited data

How the results depend on the processing

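Of the 74 values computed under the alternatives 51 moved by less than the spread between replicates (or, for counts, by no more than 1.5 times), 19 moved by more and 4 turned their sign, and leaving out any replicate was among the first kind for every value it could be computed for. With a 200 bp window the strong share of members was -21.3 percentage points from coding-only promoters and 4.30 from regions away from a TSS, 59 members were optimal, 36 of them strong in all replicates, the element difference turned to -0.511, the GC difference was -0.207 and the distance difference 21.7 bp. With a 1000 bp window the difference from regions away from a TSS was 5.89, 174 members were optimal, 120 of them strong in all replicates, and the distance difference was 327 bp. The same difference was 5.83 with coding starts excluded to 1000 bp and 7.06 for lncRNA: genes alone. With N halved the differences were -8.43 from coding-only promoters, 4.74 from regions away from a TSS and -15.4 for intergenic regions, with 59 members called and 47 of them in all replicates. With 1 region per gene they were -20.6 and, turned in sign, -2.17, with strong shares of 21.6% for members and 23.8% away from a TSS. The GC difference was -2.74 over 50 bp to each side and turned to 1.25 over 250 bp, where the element difference was 0.784. Without mismatches the element difference turned to -0.206, with a match in 0% of strong and 0.206% of weaker members. Wider or narrower windows hold other regions by construction, and the cause of the other shifts was not tested. The count of optimal members could not be recomputed without a replicate, since the pooled list is the authors'. The p-values cannot pass 0.05 at 3 replicates, and with depth unknown a missing candidate does not show that a promoter was unbound.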
